A study of Mus musculus with 12 samples.

Results

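The genes described here encode the mouse proteasome, the protease that degrades proteins tagged with ubiquitin, together with the immunoproteasome subunits, the proteasome's activators and inhibitor, and its assembly chaperones. They were chosen by name, as every gene whose symbol begins with Psm, one letter from a to g and a digit, and 50 of the 22243 genes in the deposited table met this rule, through 54 transcripts. Of these 50 genes, 47 averaged 1 TPM or more over the 12 libraries, as did 8780 genes in all, and could be tested. The 3 that did not were Psma8, a core subunit of the testis, Psmb11, the catalytic subunit of the thymus cortex, and Psmc3ip, a meiotic recombination factor that shares only the start of its name with the ATPase Psmc3.

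Bulk RNA sequencing was performed on bone marrow-derived macrophages (BM-Mɸs) of 6 LysMCre/ErbB4-floxed mice (ErbB4myeKO) and 6 ErbB4-floxed littermates without Cre (ErbB4FF), 1 of each from 6 litters on a C57Bl/6 background. The age and sex of the animals are not on the labels. All 12 cultures were grown with medium conditioned for macrophage colony-stimulating factor and M1-activated by 16 h of IFN-γ at 100 U/mL followed by 6 h of LPS at 100 ng/mL, so that every library, controls included, comes from interferon-treated cells and there was no untreated group. LysMCre is a knock-in that expresses Cre from the Lyz2 locus, active in macrophages and neutrophils, and disrupts that copy of Lyz2, and both groups carried the floxed allele.

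The core of the proteasome is a barrel of stacked rings, with rings of α subunits at its ends that gate the entrance and rings of β subunits inside that hold the active sites. Psmb6, Psmb5 and Psmb7 encode the constitutive catalytic subunits β1, β5 and β2, which give caspase-like, chymotrypsin-like and trypsin-like cleavage. Interferon-γ induces Psmb9, Psmb8 and Psmb10 (also known as LMP2, LMP7 and MECL-1), which take the places of Psmb6, Psmb5 and Psmb7 in newly built particles to form the immunoproteasome, whose cleavage yields peptides that suit MHC class I molecules. A regulatory particle of ATPases and other subunits binds, unfolds and feeds in ubiquitin-tagged substrates, while the interferon-induced activator of Psme1 and Psme2 opens the barrel without ubiquitin.

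Before the values, the letters in front of the genes were searched for short patterns of the elements that interferon and stress factors are known to read. RefSeq promoters (GRCm38.p6) were at hand for 42 of the 50 genes in 45 windows, and the 250 bases before each start were searched on both strands for the interferon-γ element GAS (TTCNNNGAA), a core of the IRF element (AANNGAAA) and the antioxidant element ARE (TGACNNNGC), which the CNC factors Nfe2l1 and Nfe2l2 read. GAS was found in 2 of the 45 windows, IRF in 10 and ARE in 5, where 7.02%, 21.3% and 10.2% of all 32851 promoters held them. Patterns this short are common in promoters at large, the counts were not tested, and a match does not mark a gene as regulated. The matches of the catalytic genes are shown because they set the interferon-induced Psmb8 beside the constitutive subunits, with the matched letters in capitals and each sequence written 5′ to 3′ on the strand of its gene.
Psmb8 GAS: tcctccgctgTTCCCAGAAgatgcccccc
Psmb5 ARE: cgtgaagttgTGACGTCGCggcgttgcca
Psmb6 ARE: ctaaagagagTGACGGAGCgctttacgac
Psmb6 IRF: acctctgtctTTTCCCTTctgccgtcaa
The Psmb8 window lies at chr17:34198088-34198116 on the plus strand, within the span that GENCODE M21 gives to Psmb8, and its match begins 97 bases before the RefSeq start. The Psmb5 window, at chr14:54618024-54618052 on the minus strand, has its match 47 bases before the start. Those of Psmb6 lie at chr11:70525338-70525366 and chr11:70525277-70525304 on the plus strand, with matches that begin 9 and 70 bases before the start, and the IRF letters read on the opposite strand. No match was found in the windows of Psmb9 and Psmb10, which says only that these letters are not in these 250 bases, and Psmb7 was not in the table. A match is a description of the sequence, not evidence of binding.

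Of the library facts that touch these genes, Erbb4, which the deletion targets, was between 0.280 and 0.852 TPM in the libraries labelled ErbB4myeKO and between 0.372 and 0.716 in those labelled ErbB4FF, so that its level did not separate the labels. Its mean was 0.583 TPM in ErbB4myeKO and 0.450 TPM in ErbB4FF, not lower where the gene is deleted. It was under 1 TPM in every library, so the deletion cannot be read from these values. Lyz2, whose locus carries Cre, was 0.434 to 0.570 times as high in the library labelled ErbB4myeKO as in its littermate in litters 1 to 5 but 2.70 times as high in litter 6, at 7997 and 2964 TPM. Lyz2 thus went against the labels in litter 6, so ErbB4myeKO and ErbB4FF below stand for libraries labelled so, directions in litter 6 are in doubt (an exchange of its labels was not tested), and log2 ratios, shares and list counts are also given without it. Depth is not in a table of TPM, and the principal transcripts listed held between 59.0% and 64.9% of a library's TPM in 5 litters and 71.4% and 74.7% in the libraries of litter 5, which stand apart. All 5 macrophage markers were above 1 TPM on average (sum 1430 to 2204 TPM in ErbB4myeKO and 1328 to 2129 TPM in ErbB4FF), as were 4 of 7 neutrophil markers (39.5 to 371 and 39.8 to 184 TPM), 2 of 5 dendritic cell markers and none of 6 lymphocyte or 4 erythroid markers. The neutrophil sum came mostly from S100a8 and S100a9 (means 63.8 and 38.1 TPM), with Ngp and Camp at 6.16 and 3.11 TPM. Ly6g, Mpo and Elane were at 0.091, 0.121 and 0.060 TPM.

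The proteasome genes together held between 0.752% and 0.993% of the TPM in the table, 0.880% ± 0.065 in ErbB4myeKO and 0.861% ± 0.089 in ErbB4FF (SD, n = 6 each). The share was lower in ErbB4myeKO in 3 of 6 litters, and the mean difference of 0.019 ± 0.043 percentage points (SD over litters) did not exceed that spread (0.029 ± 0.040 points without litter 6). Levels of the listed transcripts, in TPM, a value per transcript length, differed widely between genes of one particle. Many listed transcripts share 31-base words with other transcripts of the gene (99.8% for Psmg2) or with other genes (66.85% for Psmb3 and 45.3% for Psmd2). Differences in level between genes are therefore uncertain and are not amounts of subunits. Of the 47 genes past the filter, 22 had a mean of at least 100 TPM and 6 a mean under 10 TPM, and the coefficient of variation over the 12 libraries had a median of 21.6%. The highest of the 12 values of a gene lay in a library of litter 5 for 29 of the 47 genes and in one of litter 3 for 12. The labels also carry a batch letter, A to F, that changes with the litter number, so spread by litter and spread by batch cannot be told apart.

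In the α ring, which gates the barrel, all 7 genes passed the filter and mean levels ran from 7.82 TPM for Psma3 to 531 TPM for Psma6. Of Psma3, 47.6% of the 31-base words of its listed transcript also occur in other transcripts of the gene and 27.1% in transcripts of other genes, so its level belongs to that transcript and is uncertain. The 4 β subunits without an active site, Psmb1 to Psmb4, lay between 123 TPM (Psmb4) and 246 TPM (Psmb2). The 6 ATPases that unfold substrates were closer together, from 43.1 TPM for Psmc6 to 128 TPM for Psmc2.

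Of the other 11 regulatory particle genes, the scaffold subunit Psmd2 was highest at 144 TPM, the ubiquitin receptor Psmd4 was at 93.0 TPM and the deubiquitinase Psmd14, which removes the ubiquitin chain, was at 80.5 TPM and among the steadiest genes, with a coefficient of variation of 9.18%. Psmd8, also a constant part of the particle, was far below its partners, between 0 and 7.36 TPM and listed at 0 in 1 library. Every 31-base word of its leading transcript, Psmd8-203, occurs in other transcripts of the gene, as do 98.2% of those of Psmd2 in its own gene. The level is that of the listed transcripts, and the part of shared sequence in it was not tested. Psmd3, a lid subunit, had 67.8 TPM, Psmd6, Psmd7 and Psmd12, also of the lid, had 70.3, 132 and 38.5 TPM, and Psmd13 had 12.0 TPM.

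The 7 assembly chaperones, which build the particle and leave it, were low. Psmd10 had 30.6 TPM with a coefficient of variation of 8.54%, Psmd5 and Psmd9 had 5.64 and 6.32 TPM, and Psmg2, Psmg3 and Psmg4, which help to build the core, had 5.36, 15.7 and 17.2 TPM. Psmg1, the partner of Psmg2, lay between 0 and 7.58 TPM and was listed at 0 in 1 library. Among the regulators, Psme4, which caps the core in the nucleus, had 23.1 TPM and the inhibitor Psmf1 had 23.0 TPM. Psma8 and Psmb11, the testis and thymus forms, had 0.409 and 0.113 TPM.

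**Figure D1:**
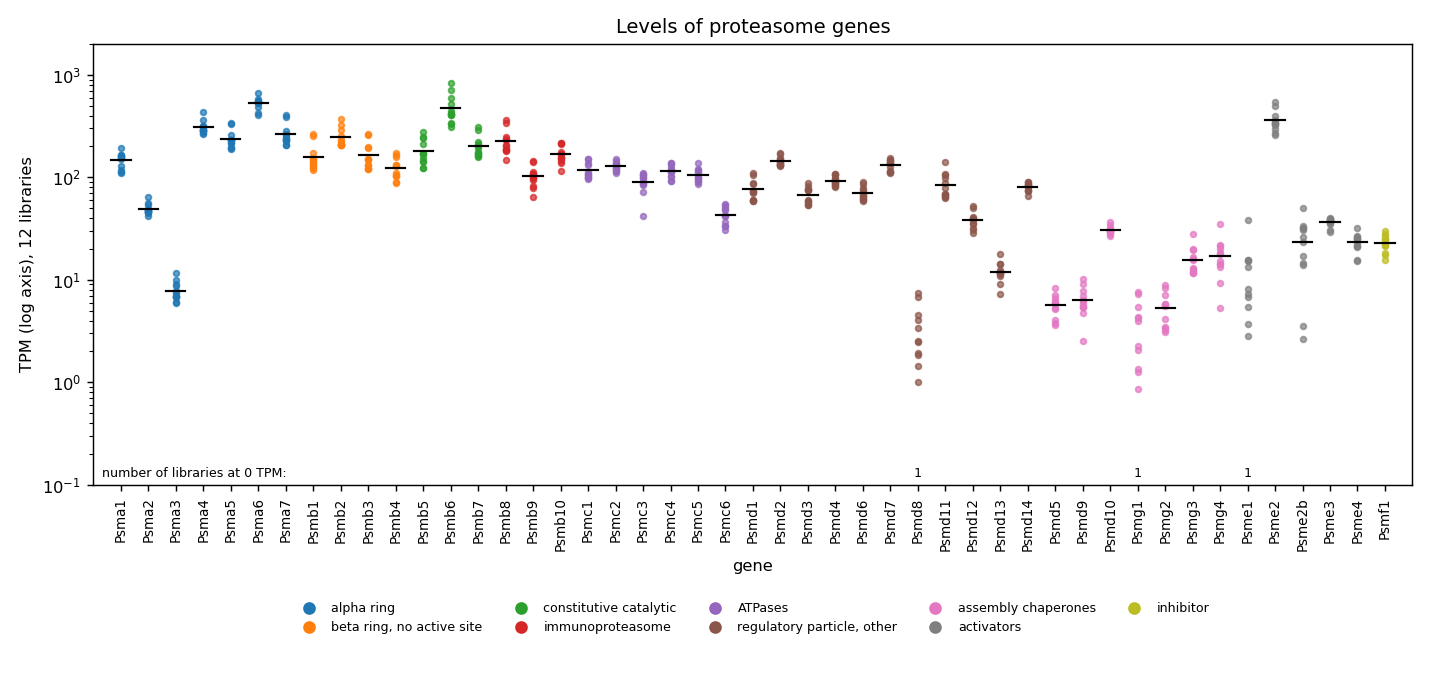
TPM (log axis) of the 47 proteasome genes that averaged 1 TPM or more, by role, in 12 libraries. Points are libraries and black lines the mean of 12, left out for the 3 genes listed at 0 in 1 library (Psmd8, Psmg1 and Psme1); the means of the core genes lie mostly above 100 TPM and those of the assembly chaperones at 30.6 TPM or less.

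All 3 immunoproteasome genes were strongly expressed in both groups, as the levels of the catalytic subunits show. Summed, Psmb8, Psmb9 and Psmb10 had a median of 436 TPM in ErbB4myeKO and 523 TPM in ErbB4FF, beside 744 and 770 TPM for Psmb5, Psmb6 and Psmb7. Within the places they share in the particle, the 3 pairs stood differently.

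For the chymotrypsin-like place, Psmb8 exceeded Psmb5 in 9 of 12 libraries, with a level difference of 0.32 ± 0.32 on the log2(TPM + 0.5) scale (SD over 6 litters, exact permutation p = 0.125 over swaps of the genes within litters, two-sided). For the caspase-like place, Psmb9 lay below Psmb6 in all 12 libraries, with a level difference of -2.18 ± 0.33 on that scale, a 0.221-fold level (exact permutation p = 0.0312, the smallest that 6 litters allow, and 0.0938 adjusted over 3 pairs). For the trypsin-like place, Psmb10 was above Psmb7 in 3 of 12 libraries, with a log2 level difference of -0.26 ± 0.29 (exact permutation p = 0.0625, adjusted 0.0938). No pair passed 0.05 after adjustment, which 1 pair alone cannot do with 6 litters, as the smallest p then becomes 0.0938. Levels between genes also carry the limits of the listed transcripts, as 74.0% of the 31-base words of Psmb5 occur in other genes, chiefly its near copy Gm3375, and those of Psmb8, Psmb9 and Psmb10 in none. In other transcripts of the same gene occur 63.45%, 64.52% and 71.12% of the words of Psmb8, Psmb9 and Psmb10, and 64.9% of those of Psmb5.

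Compared between littermates, all 3 interferon-induced subunits lay lower in ErbB4myeKO on average, with log2 ratios of -0.22 to -0.17, while the constitutive subunits lay on both sides of 0. None of these differences passed the test across all genes, and neither did any other gene, as 0 of 8780 genes (0%) had an adjusted p under 0.05 by limma with litter as a block and the smallest was 0.603. Without litter 3, 1 gene that is no proteasome gene passed. At an unadjusted p under 0.05, 385 genes (4.38%) were lower and 336 genes (3.83%) higher. Bulk RNA cannot tell fewer cells of one kind from less RNA per cell.

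Psmb8 (ENSMUSG00000024338, chr17:34197721-34201454, plus strand, GRCm38), the interferon-induced chymotrypsin-like subunit, was between 147 and 360 TPM in ErbB4myeKO with a median of 186, and between 179 and 341 TPM in ErbB4FF with a median of 235. The groups overlapped widely, and the libraries of litter 5 were the highest of both, at 360 and 341 TPM, while no other library passed 247 TPM. Within litters Psmb8 was lower in ErbB4myeKO in 5 of 6, and higher in litter 5 alone. The log2 ratio was -0.22 with a standard error of 0.071 and a 95% confidence interval of -0.39 to -0.06 (limma p = 0.0147, adjusted p = 0.603, exact permutation p = 0.0625), and -0.28 without litter 5. Without litter 6, where Lyz2 went against the labels, it was -0.20 (limma adjusted p = 0.767), lower in 4 of 5 litters.

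Psmb9 (ENSMUSG00000096727, chr17:34181987-34187764, minus strand), the induced subunit that replaces the caspase-like Psmb6, and a neighbour of Psmb8 in the MHC region, was between 64.4 and 140 TPM in ErbB4myeKO with a median of 95.5, and between 82.4 and 145 TPM in ErbB4FF with a median of 108. It was the 1 catalytic gene that lay lower in ErbB4myeKO in all 6 litters by label, although in litter 1 the values were 97.6 and 97.7 TPM and the largest difference, a log2 ratio of -0.44, came from litter 6, where Lyz2 went against the labels. Its log2 ratio was -0.20 with a standard error of 0.077 (limma p = 0.0345, adjusted p = 0.603, exact permutation p = 0.0312), and without litter 6 it was -0.15 (limma adjusted p = 0.769), lower in 5 of 5 litters. With a covariate from Y-linked genes the Psmb9 log2 ratio was -0.18, and its unadjusted limma p was no longer under 0.05.

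Psmb10 (ENSMUSG00000031897, chr8:105935735-105938444, minus strand), the interferon-induced trypsin-like subunit, lies outside the MHC region. It was between 116 and 215 TPM in ErbB4myeKO with a median of 156, and between 143 and 215 TPM in ErbB4FF with a median of 172. It was lower in ErbB4myeKO in 4 of 6 litters, with a log2 ratio of -0.17 and a standard error of 0.085 (exact permutation p = 0.125, limma adjusted p = 0.603). Without litter 6 the log2 ratio was -0.12, lower in 3 of 5 litters. In litters 2, 3, 4 and 6 all 3 induced genes were lower in ErbB4myeKO, while in litter 1 their log2 ratios were -0.16 for Psmb8, -0.00073 for Psmb9 and 0.15 for Psmb10, and in litter 5 they were 0.08, -0.04 and 0.0024.

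The constitutive subunits did not lie lower together. Psmb5 (ENSMUSG00000022193, chr14:54614119-54618022, minus strand), the chymotrypsin-like subunit that Psmb8 replaces, was between 145 and 278 TPM in ErbB4myeKO with a median of 170, and between 123 and 246 TPM in ErbB4FF with a median of 157. It was higher in ErbB4myeKO in 4 of 6 litters, with a log2 ratio of 0.13 and a standard error of 0.099 (limma adjusted p = 0.708). The ratio was 0.06 without litter 2 and 0.19 without litter 6. The 4 litters with higher Psmb5 were 1, 2, 4 and 5, and in litters 3 and 6 it was lower.

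Psmb6 (ENSMUSG00000018286, chr11:70525367-70527858, plus strand), the caspase-like subunit, was the highest of the catalytic genes. It was between 313 and 842 TPM in ErbB4myeKO with a median of 417, and between 328 and 712 TPM in ErbB4FF with a median of 424. Its log2 ratio of -0.05 had a standard error of 0.098 (limma adjusted p = 0.882). It was 0.04 without litter 3, where it was lower in ErbB4myeKO, and -0.02 without litter 6, with 4 of 5 litters higher. Psmb7 (ENSMUSG00000026750, chr2:38588036-38644087, minus strand), the trypsin-like subunit, was between 166 and 292 TPM in ErbB4myeKO with a median of 186, and between 159 and 307 TPM in ErbB4FF with a median of 185. Its log2 ratio was 0.03 with a standard error of 0.053 (limma adjusted p = 0.873), the closest to 0 of the 6 catalytic genes over all litters. It was 0.0043 without litter 2 and 0.05 without litter 6.

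**Figure D2:**
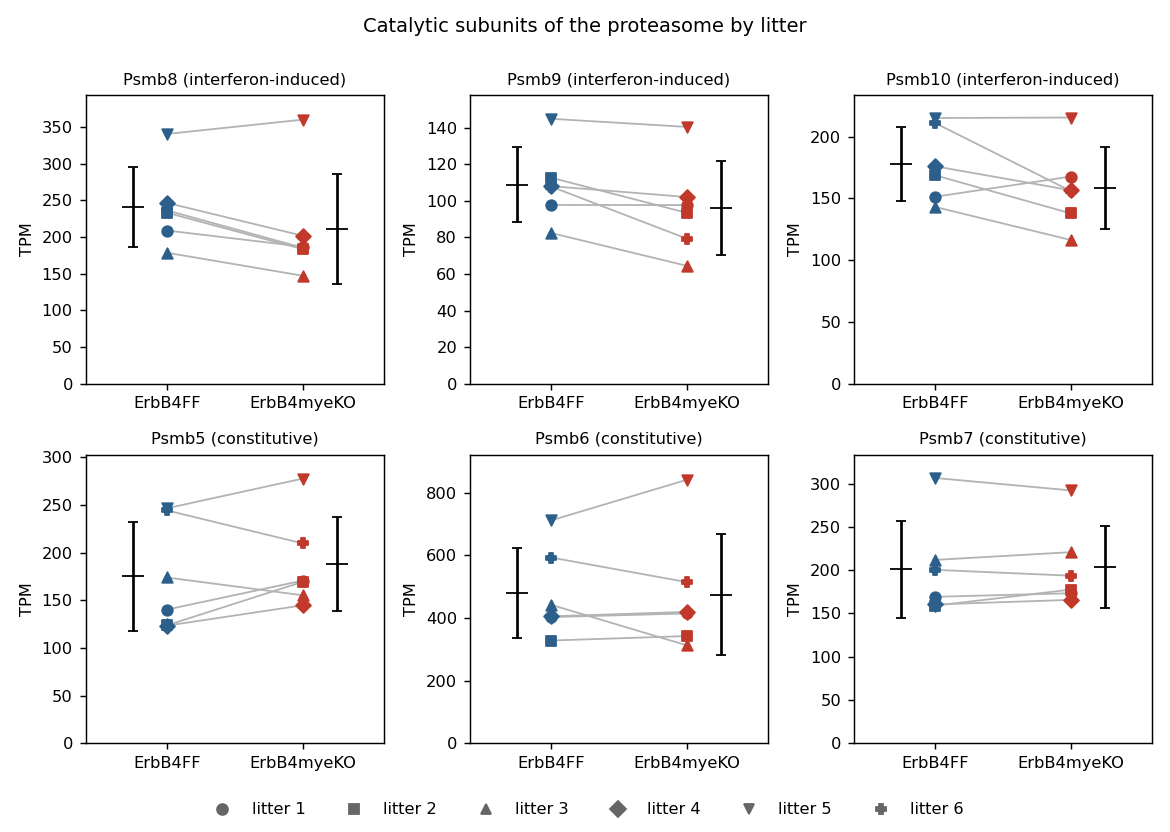
TPM of the interferon-induced (top) and constitutive (bottom) catalytic subunits in ErbB4FF and ErbB4myeKO, with a grey line joining the littermates of each of 6 litters and bars for the mean ± SD of 6 libraries. By label, Psmb9 lies lower in ErbB4myeKO in 6 of 6 litters and Psmb8 in 5 of 6, litter 6 included, where Lyz2 went against the labels, and litter 5 is the highest of each group for all 6 genes.

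A ratio between genes of one library does not depend on how that library was scaled. Psmb8, Psmb9 and Psmb10 made up between 31.4% and 38.7% of the TPM of the 6 catalytic subunits in ErbB4myeKO (35.2% ± 3.08, SD, n = 6) and between 32.8% and 45.7% in ErbB4FF (38.6% ± 5.13). The share was lower in ErbB4myeKO in all 6 litters, with a mean difference of -3.45 ± 2.74 percentage points (SD over litters) and gaps from 0.541 points in litter 3 to 8.16 points in litter 2. Without litter 6, whose direction is in doubt from Lyz2, it was lower in 5 of 5 litters, with a mean difference of -3.46 ± 3.06 points. The groups overlapped, since litters 3 and 6 had low shares and litters 2 and 4 the highest shares in both genotypes.

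As a mean of logs, the interferon-induced subunits less the constitutive ones differed between littermates by -0.23 ± 0.16 on the log2 scale (SD over litters), with values of -0.12, -0.53, -0.11, -0.29, -0.10 and -0.25 in litters 1 to 6. All 6 were below 0, and without litter 6 the mean was -0.23 ± 0.18. This difference over several chosen genes is given without a p-value, and it was -0.17 without litter 2, the litter that differed most.

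Each induced subunit was then set against the subunit that it replaces, in 3 comparisons. Psmb8/Psmb5 was between 0.885 and 1.39 in ErbB4myeKO and between 0.968 and 1.999 in ErbB4FF. The ratio was lower in ErbB4myeKO in 6 of 6 litters, with a log2 difference of -0.35 ± 0.29 (exact permutation p = 0.0312 over the 64 swaps within litters, two-sided, and 0.0938 adjusted over 3 pairs). Without litter 6 it was lower in 5 of 5, with a log2 difference of -0.39 ± 0.30 (exact permutation p adjusted over 3 pairs 0.188). Both a lower Psmb8 and a higher Psmb5 entered this ratio in litters 1, 2 and 4.

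Psmb9/Psmb6 was between 0.154 and 0.273 in ErbB4myeKO and between 0.182 and 0.343 in ErbB4FF, and was lower in 5 of 6 litters with a log2 difference of -0.15 ± 0.18 (exact permutation p = 0.125, adjusted 0.125). Litter 3, where Psmb6 lay further below its littermate's level than Psmb9 did, went the other way. Psmb10/Psmb7 was between 0.526 and 0.967 in ErbB4myeKO and between 0.675 and 1.10 in ErbB4FF, lower in 4 of 6 litters with a log2 difference of -0.20 ± 0.24 (exact permutation p = 0.125, adjusted 0.125). Without litter 6 these were -0.13 ± 0.19 (lower in 4 of 5 litters) and -0.17 ± 0.25 (lower in 3 of 5). Both differences were smaller than their SD over litters, and no comparison of replaced and replacing subunits passed 0.05 after adjustment.

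**Figure D3:**
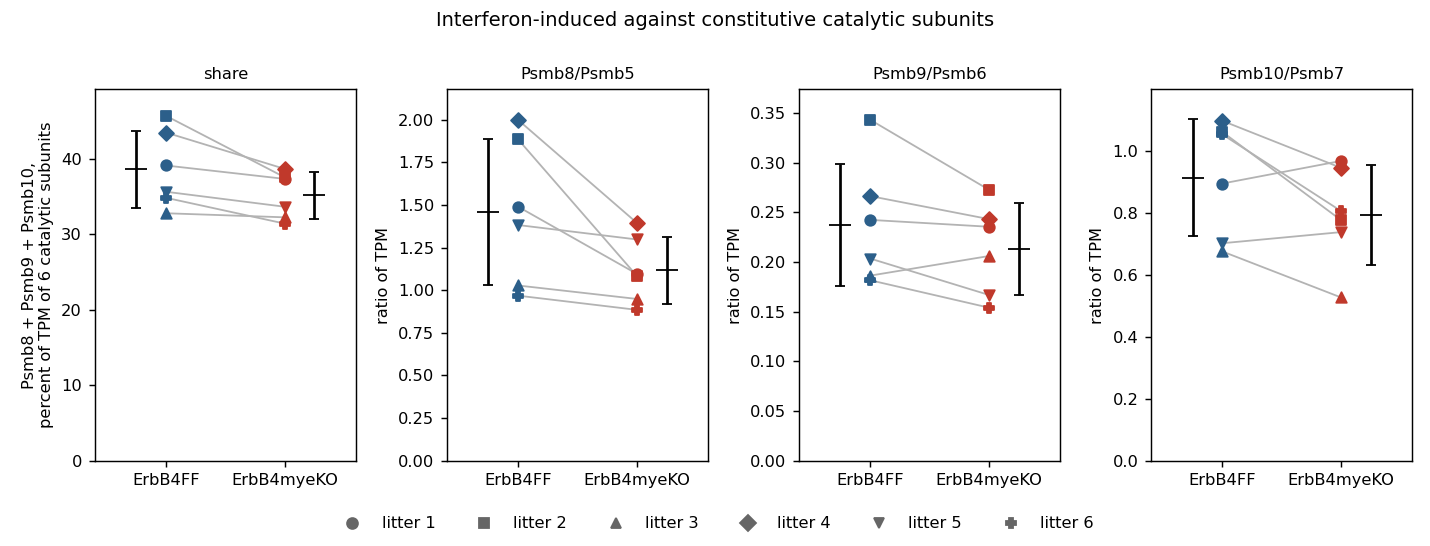
Share of Psmb8, Psmb9 and Psmb10 in the TPM of 6 catalytic subunits (percent, left) and the ratio of TPM of each induced subunit to the one it replaces, in ErbB4FF and ErbB4myeKO with littermates joined and bars for the mean ± SD of 6 libraries. By label, with litter 6 included, the share and Psmb8/Psmb5 are lower in ErbB4myeKO in 6 of 6 litters, Psmb9/Psmb6 in 5 and Psmb10/Psmb7 in 4.

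Dendritic cells also express the immunoproteasome, and the summed level of 5 dendritic cell markers was higher in the libraries labelled ErbB4myeKO in 6 of 6 litters, and in 5 of 5 without litter 6. In litters 1 and 5 the littermates were close, at 17.7 and 17.1 TPM and at 8.95 and 8.79 TPM, and in litter 6 they were at 24.03 and 14.5 TPM. The sum was 8.95 to 33.4 TPM in ErbB4myeKO and 4.47 to 25.5 TPM in ErbB4FF, and came almost wholly from Xcr1 (mean 13.3 TPM) and Clec9a (1.67 TPM), while Flt3 and Zbtb46 were at 0.028 and 0.166 TPM and Cd209a was at 0 in all 12 libraries. Whether dendritic cells were present in the cultures, and whether they had any part in the result, was not tested.

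Over all proteasome genes, the median log2 ratio was 0.03, or -0.01 without litter 2, beside -0.00068 over the 8780 genes tested with all litters. The median of the 44 genes other than Psmb8, Psmb9 and Psmb10 was also 0.03, with 28 above 0 and 16 below, and without litter 6 it was 0.05, with 30 above and 14 below. At an unadjusted p under 0.05, 2 of 47 genes (4.26%), Psmb8 and Psmb9, were lower and 1 (2.13%), Psma1, was higher, shares that are near or under the 4.38% and 3.83% of all genes. In at least 5 of 6 litters 5 genes (10.6%, beside 14.3% of all genes) were lower by label and 8 genes (17%, beside 13.9%) higher. In at least 4 of the 5 litters other than litter 6, 6 genes (12.8%, beside 21.8% of all genes) were lower and 18 genes (38.3%, beside 20.8%) higher, among them Psmb5, Psmb6 and Psmb7. These counts were not tested. The groups did not overlap for 0 of the 47 genes, beside 0.0456% of all genes, and without litter 6 again for 0, beside 0.125%. Without litter 6, 1 gene (2.13%), Psmb8, was lower at an unadjusted p under 0.05 and none higher, beside 3.18% and 2.67% of all genes, and the median over the proteasome genes was 0.05, with 30 above 0 and 17 below.

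By role, 14 of the 17 regulatory particle genes (82.4%, beside 49.8% of all genes) had a log2 ratio above 0 and 3 below, with a median of 0.05, and the same counts without litter 6. None reached an unadjusted p of 0.05, and no direction of the group was tested. The 14 core genes other than the induced ones had a median of -0.0059, with 6 above 0 and 8 below, and the 4 β subunits without an active site lay below 0 with a median of -0.02. Without litter 6 the core genes had a median of 0.0028, with 7 above 0 and 7 below, and of the 4 β subunits 1 lay above 0, Psmb1, and 3 below, with a median of -0.01. The median of the regulatory particle was above 0 in litters 2, 3, 4, 5 and 6, from 0.0067 in litter 5 to 0.31 in litter 2, and -0.01 in litter 1. The 7 assembly chaperones had a median of 0.01 and the 5 activators one of 0.08, or 0.07 and 0.13 without litter 6.

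**Figure D4:**
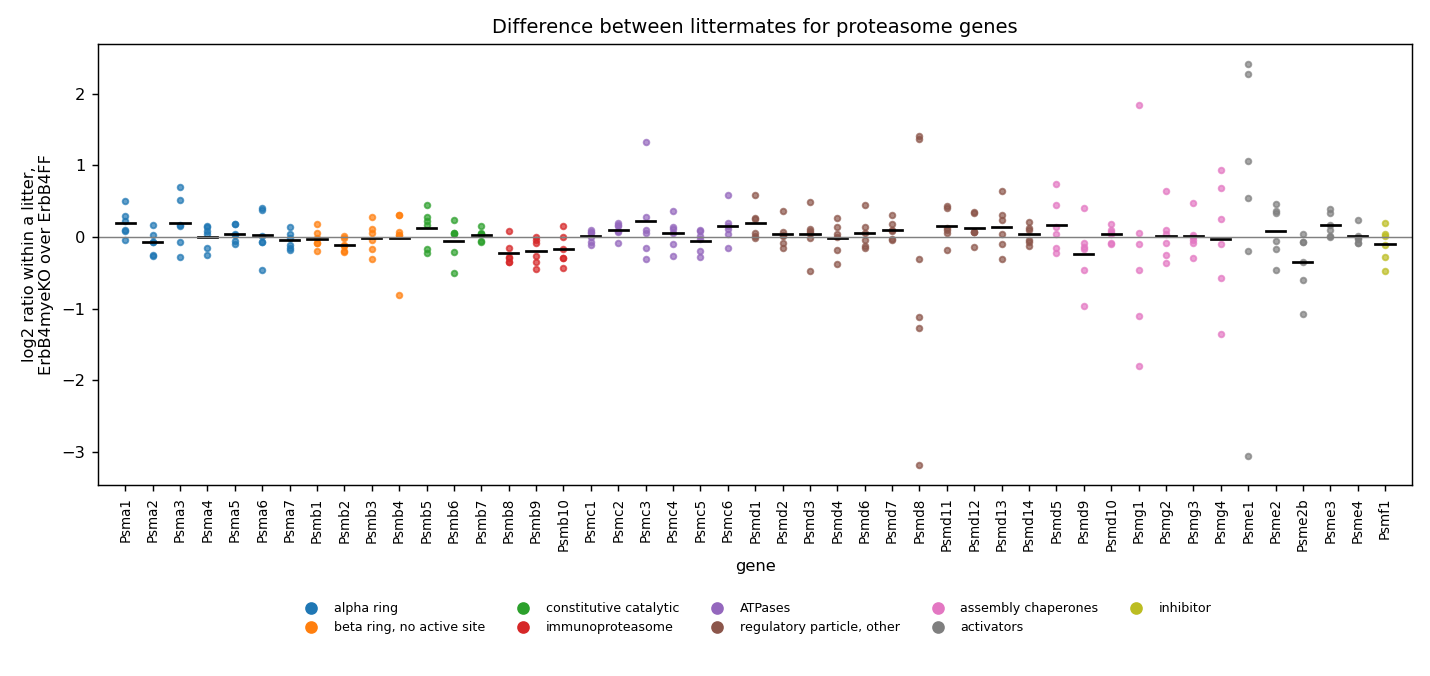
Log2 ratio of TPM + 0.5 between littermates (ErbB4myeKO over ErbB4FF) for the 47 proteasome genes past the filter, coloured by role, with 1 point a litter and a black line at the mean of 6 litters (left out for the 3 genes listed at 0 in a library). The means of Psmb8, Psmb9 and Psmb10 are -0.22, -0.20 and -0.17, and 14 of 17 regulatory particle genes lie above 0.

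Psma1, an α ring subunit, had the smallest p among the proteasome genes higher in ErbB4myeKO. It was between 119 and 192 TPM in ErbB4myeKO with a median of 159, and between 111 and 164 TPM in ErbB4FF with a median of 142. It was higher in 5 of 6 litters, with a log2 ratio of 0.19 and a standard error of 0.079 (limma p = 0.0415, adjusted p = 0.603, exact permutation p = 0.0625). Litter 2 contributed most, with a log2 ratio of 0.50, and without it the ratio was 0.13. Without litter 6 it was 0.19.

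Psmd1 and Psmd11 belong to the regulatory particle, Psmd1 as a large scaffold of its base and Psmd11 as a lid subunit whose amount is known to limit the assembly of the full particle. Psmd1 was between 59.6 and 109 TPM in ErbB4myeKO (median 79.5) and between 59.0 and 105 TPM in ErbB4FF (median 65.4), higher in 5 of 6 litters with a log2 ratio of 0.19 and a standard error of 0.090 (limma adjusted p = 0.603). Psmd11 was between 66.8 and 140 TPM in ErbB4myeKO (median 78.6) and between 62.7 and 105 TPM in ErbB4FF (median 72.5), higher in 5 of 6 litters with a log2 ratio of 0.16 and a standard error of 0.091 (limma adjusted p = 0.642). The groups overlapped for both genes, although Psmd11 in ErbB4myeKO of litters 3 and 6, at 140 and 108 TPM, lay above the highest ErbB4FF library. The log2 ratios were 0.11 and 0.10 without litter 2, and 0.18 and 0.16 without litter 6. Psmd11 has 2 listed transcripts, of which Psmd11-201 was higher in ErbB4myeKO in 4 litters and Psmd11-214 in 5.

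Psmb2, a β subunit without an active site, was between 208 and 326 TPM in ErbB4myeKO with a median of 211, and between 207 and 374 TPM in ErbB4FF with a median of 229. It was lower in ErbB4myeKO in 5 of 6 litters, with a log2 ratio of -0.11 and a standard error of 0.055 (limma adjusted p = 0.615). By litter it ran from 0.02 in litter 2 and -0.01 in litter 1 to -0.20 in litter 5 and -0.22 in litter 6. Without litter 6 the log2 ratio was -0.09, lower in 4 of 5 litters.

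The interferon-induced activator PA28 is built from Psme1 and Psme2, which are neighbours on chromosome 14, and the 2 were listed at very different levels. Psme2 was between 295 and 548 TPM in ErbB4myeKO with a median of 339, and between 258 and 500 TPM in ErbB4FF with a median of 336. It went each way in 3 litters, with a log2 ratio of 0.08 and a standard error of 0.13 (limma adjusted p = 0.861). It was 0.0041 without litter 3, 0.02 without litter 2, 0.19 without litter 5 and 0.13 without litter 6 (higher in 3 of 5 litters). Unlike Psmb8, Psmb9 and Psmb10 it was higher in ErbB4myeKO in litters 2, 3 and 4, with log2 ratios of 0.36, 0.46 and 0.34; whether it differed from them was not tested.

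Psme1 was listed at 15.7, 0, 38.1, 15.5, 8.17 and 13.4 TPM in ErbB4myeKO of litters 1 to 6 and at 7.27, 3.67, 6.73, 2.82, 5.47 and 15.3 TPM in ErbB4FF. The value of 0 in litter 2, in cells with 347 TPM of its partner, belongs to the 1 transcript listed, Psme1-208, of whose 31-base words 95.8% occur in other transcripts of the gene, so the level of the gene as a whole cannot be read from it. The log2 ratio of 0.50 had a standard error of 0.67 (limma adjusted p = 0.827). It was 1.22 without litter 2, 0.12 without litter 3 and 0.64 without litter 6, and 0.19 with a pseudocount of 0.1 in place of 0.5.

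Psme2b, a gene on chromosome 11 with near-identical sequence to Psme2 (76.5% of its 31-base words occur there), is reported as uncertain. It was between 2.63 and 32.2 TPM in ErbB4myeKO with a median of 20.2, and between 3.50 and 50.1 TPM in ErbB4FF with a median of 28.4. It was lower in 5 of 6 litters, with a log2 ratio of -0.35 and a standard error of 0.15 (exact permutation p = 0.0625, limma adjusted p = 0.603). It was -0.21 without litter 2 and -0.41 without litter 6. The libraries of litter 5 had the lowest Psme2b of both groups while Psme2 in ErbB4FF was highest there. Summed, Psme2 and Psme2b had a log2 ratio of 0.04 ± 0.33 (SD over litters) and were higher in ErbB4myeKO in 3 of 6 litters. Without litter 6 this was 0.08 ± 0.35, higher in 3 of 5.

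Psme3, the activator of the nuclear proteasome and not an interferon target, was among the steadiest genes of the set in ErbB4myeKO, between 37.4 and 40.4 TPM with a median of 38.8. In ErbB4FF it was between 29.0 and 39.5 TPM with a median of 35.6, so that the spread was mainly in the controls. It was higher in ErbB4myeKO in 5 of 6 litters, with a log2 ratio of 0.17 and a standard error of 0.077 (exact permutation p = 0.0625, limma adjusted p = 0.603), and 0.18 without litter 6.

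**Figure D5:**
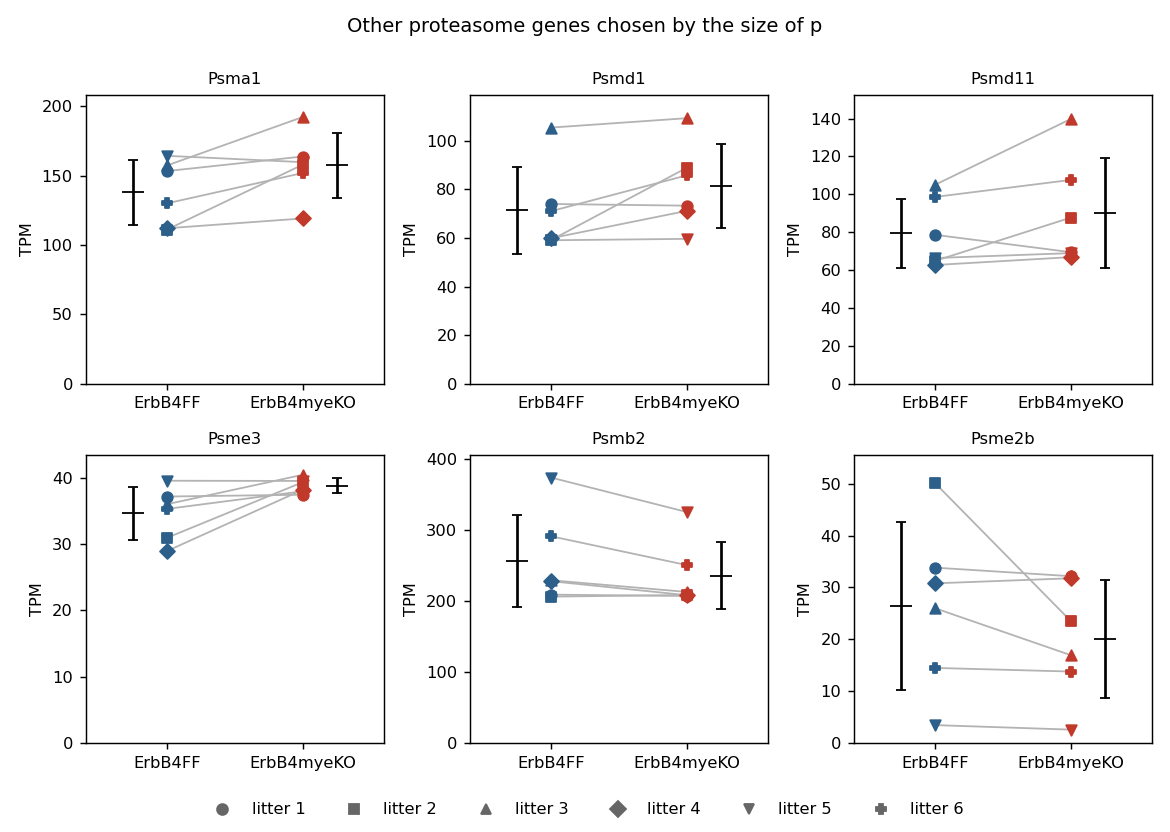
TPM of the 6 other proteasome genes with the smallest p among those that went one way in at least 5 of 6 litters, in ErbB4FF and ErbB4myeKO, with littermates joined and bars for the mean ± SD of 6 libraries. Psme3 lies between 37.4 and 40.4 TPM in ErbB4myeKO, and Psme2b is lowest in both libraries of litter 5.

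Of 4 genes with more than 1 listed transcript, Psmg3, a chaperone of core assembly, showed transcripts that went opposite ways, a pattern chosen after its values were seen. Psmg3-201 was between 2.53 and 18.9 TPM in ErbB4myeKO (median 12.0) and between 5.92 and 10.8 TPM in ErbB4FF (median 6.71), higher in 5 of 6 litters. Psmg3-202 was between 0.514 and 9.12 TPM in ErbB4myeKO (median 2.26) and between 1.04 and 13.2 TPM in ErbB4FF (median 8.30), lower in 4 of 6 litters. The transcripts share most of their sequence (93.0% and 95.9% of their 31-base words occur in another transcript of the gene), so reads may be split between them with error, and the difference was not tested.

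The other genes of the pathway were read from lists of cofactors, peptide loading, interferon signaling and ubiquitin. Of 9 proteasome cofactors none passed the adjusted test and 3 had an unadjusted p under 0.05, named here after their values were seen, 2 higher (22.2%, beside 3.83% of all genes) and 1 lower (11.1%, beside 4.38%). Without litter 6 these were 1 (11.1%, beside 2.67%) and 1 (11.1%, beside 3.18%). Nfe2l1, the factor that raises proteasome genes when proteasome activity is short, had a log2 ratio of 0.35 with a standard error of 0.10 and was higher in ErbB4myeKO in 6 of 6 litters (limma adjusted p = 0.603), but -0.03 where the transcript with the highest level stood for the gene alone. It was lowest in both libraries of litter 5, at 11.4 and 6.17 TPM, beside medians of 64.1 and 52.6 TPM. Without litter 6 its log2 ratio was 0.37, higher in 5 of 5 litters. Ecpas, a scaffold that binds the proteasome, had a log2 ratio of 0.21, and Uchl5, a deubiquitinase of the regulatory particle, one of -0.35 (both limma adjusted p = 0.603), or 0.17 and -0.41 without litter 6. Pomp, the maturation factor that immunoproteasome assembly needs, was between 79.8 and 144 TPM in ErbB4myeKO and between 86.9 and 159 TPM in ErbB4FF, with a log2 ratio of -0.09 and a standard error of 0.063 (limma adjusted p = 0.668), and -0.07 without litter 6.

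The 10 peptide loading genes, which carry proteasome products to MHC class I, had a median log2 ratio of -0.06, with 3 above 0 and 7 below (-0.03 with the same counts without litter 6), and none reached an unadjusted p of 0.05. Tap1, the peptide transporter gene next to Psmb9, was between 95.9 and 224 TPM in ErbB4myeKO with a median of 173, and between 92.4 and 202 TPM in ErbB4FF with a median of 187. It was higher in ErbB4myeKO in 4 of 6 litters and its log2 ratio was -0.07 with a standard error of 0.10 (limma adjusted p = 0.839), so that it did not follow its neighbour Psmb9 in sign in litters 1, 2, 4 and 5. Without litter 6 its log2 ratio was -0.0055. The 4 ubiquitin genes had a median of -0.07, with all 4 below 0 and none at an unadjusted p under 0.05. Without litter 6 the median was -0.05, with Rps27a above 0 and 3 below.

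Of 10 interferon regulators 6 lay above 0 and 4 below, with a median log2 ratio of 0.02 (5 and 5, with a median of 0.04, without litter 6). At an unadjusted p under 0.05, 2 (20%, beside 4.38% of all genes) were lower, or 1 (10%, beside 3.18%) without litter 6, and none higher (beside 3.83%). Ifngr2, a chain of the interferon-γ receptor, had a log2 ratio of -0.20 with a standard error of 0.058 and was lower in ErbB4myeKO in 6 of 6 litters, and Stat2, a factor of type I interferon signaling, had a log2 ratio of -0.19 and was lower in 5 of 6 (both limma adjusted p = 0.603, named after their values were seen). Without litter 6 the log2 ratios were -0.22 for Ifngr2, lower in 5 of 5 litters, and -0.17 for Stat2.

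Irf1, an interferon-induced factor that drives Psmb9 and Tap1, was between 211 and 624 TPM in ErbB4myeKO with a median of 545, and between 253 and 639 TPM in ErbB4FF with a median of 541, with a log2 ratio of -0.05 and a standard error of 0.062 (limma adjusted p = 0.819), and -0.0059 without litter 6. Nlrc5, the coactivator of MHC class I genes and of Psmb9, was between 16.4 and 80.5 TPM in ErbB4myeKO and between 11.9 and 75.2 TPM in ErbB4FF, with a log2 ratio of 0.05 and a standard error of 0.090 (limma adjusted p = 0.864). It was -0.02 without litter 5 and 0.09 without litter 6. In litters 2, 3, 4 and 6 the log2 ratio of Irf1 was -0.13, -0.04, 0.04 and -0.26 and that of Nlrc5 was 0.07, -0.18, 0.10 and -0.12, and their part in the levels of the induced subunits was not tested.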

How the data were processed

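The deposited table holds TPM values per transcript in 12 libraries. The authors pseudoaligned single-end 75 bp reads with kallisto and kept transcripts that APPRIS marks as principal; the submitters' processing notes also name CASAVA, sleuth and mm10, and the version of kallisto and the release of its transcriptome are not given in the sources used here. The table's columns of sleuth's own comparison (p-values, q-values and log ratios) were not used. Repeated lines of a transcript were dropped and TPM summed per gene. Groups and litters came from the sample titles, whose number was taken as the litter, and the batch letter on the labels follows the same number.

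Genes that averaged 1 TPM or more entered a limma 3.58.1 fit of log2(TPM + 0.5) (R 4.3.3, eBayes with trend), with genotype as the effect and litter as a block, and p-values were adjusted by Benjamini-Hochberg over 8780 genes at a threshold of 0.05. Fold changes on this scale understate those of low genes. For ratios of catalytic subunits between genotypes, all 64 swaps of genotype within litters gave an exact two-sided permutation p, of at least 0.0312. For levels of 2 subunits, the difference between the genes was averaged over the 2 libraries of a litter and the genes were swapped within litters in all 64 ways. The pairing comes from the design, 1 mouse of each genotype per litter, and littermates correlated across genes at r = 0.273 to 0.774. Depth is unknown in TPM, so precision rests on the spread over litters. Shared sequence is the percentage of the 31-base words of a transcript found elsewhere in GENCODE M21 (GRCm38), in which all 54 transcripts were found, 50 with the same version. Python 3.11.15 with numpy 2.4.6, pandas 2.3.3 and matplotlib 3.10.9 was used.

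The proteasome genes, the lists and the tests were chosen with earlier results of these data known. Values are given in full for Psmb5 to Psmb10, Psme1, Psme2 and Psme3, for the 4 genes with the smallest p in each direction among those that went that way in at least 5 of 6 litters, and for Tap1, Irf1, Nlrc5 and Pomp; any other gene named with a fold was chosen after its values were seen. Alternatives were no block, a covariate from 4 Y-linked genes (sex is not on the labels), a pseudocount of 0.1 or 1, no filter or at least 5 TPM, rescaling by median ratios, no trend, each litter left out, and the transcript with the highest mean alone. Of the interferon list, 1 gene is not reported here.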

Additional observations from a re-analysis of the deposited data

Results flagged for a closer look

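Of 73 groups of 6 values checked (TPM per genotype and log2 ratios over litters of the genes named with a fold, and the ratios of catalytic subunits), 12 held a value set apart from the other 5 by more than 0.625 of the group's range, and chance flags about 1 in 20 such groups. Litter 5 accounted for 8 of them. Its libraries were highest for Psmb8 in ErbB4myeKO (360.2 TPM), Psmb2 in ErbB4myeKO (325.8 TPM), Psmb7 in ErbB4FF (306.5 TPM), Pomp in ErbB4myeKO (144.0 TPM) and ErbB4FF (158.9 TPM) and Uchl5 in ErbB4FF (18.98 TPM), and lowest for Nfe2l1 in ErbB4myeKO (11.38 TPM) and ErbB4FF (6.17 TPM). The share of TPM held by principal transcripts was also highest in this litter, and its part in these values was not tested. The other values apart were the highest Psme1 in ErbB4FF (15.35 TPM, litter 6), the highest Psme2 in ErbB4myeKO (548.4 TPM, litter 3), the highest Psmd1 in ErbB4FF (105.4 TPM, litter 3) and the lowest Irf1 in ErbB4myeKO (210.7 TPM, litter 6). No log2 ratio over litters was set apart in this way.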

How the results depend on the processing

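No proteasome gene passed the adjusted test under any alternative run. Of all genes, 1 did without litter 3 (Igkv1-88, an immunoglobulin segment, limma adjusted p = 0.0486, named after its value was seen) and 0 under the other alternatives. The count of proteasome genes at an unadjusted p under 0.05, 3 with the litter block, was 0 with no replicate block, 1 without the trend and 1 to 4 with each litter left out (1 without litter 3 or 6, where Psmb8 remained). Psmb8 was among them under every alternative but the one with no block. The paired and unpaired fits gave the same log2 ratios. The genes at an unadjusted limma p under 0.05 changed with the processing. With the Y-linked covariate Psmb9 left and Psme2b entered, and with median ratio rescaling Psma1 left. Without litter 1 Psma1 left and Psmd11 and Psmb10 entered, and without litter 2 only Psmb8 and Psme1 were there. Psme3 entered with no filter and without litter 5. Psme2b entered with at least 5 TPM, and without litter 4, where Psma1 left. Signs turned for genes near 0. Leaving out each litter gave -0.11 to 0.038 for Psmb6 (0.03783 without litter 3), -0.12 to 0.0012 for Tap1 (0.001224 without litter 3) and 0.10 to -0.025 for Nlrc5 (-0.02472 without litter 5). With the highest transcript alone Nfe2l1 was at -0.03284, where the gene's other transcripts are left out by construction. The median over proteasome genes ran from -0.01 (without litter 2) to 0.05. The interferon-induced less constitutive difference ran from -0.26 (without litter 5) to -0.17 (without litter 2), and Psmb8 from -0.28 to -0.20. With 5 litters the smallest exact p is 0.0625. Under the alternatives 451 values, all but the 8 given above, kept their direction and their side of the threshold or stayed within the spread between litters. Many of them could not do otherwise, so this number is no measure of robustness. The interferon-induced less constitutive difference does not depend on the block, the filter or the trend, and with 5 litters no exact p can fall under 0.05. TPM of principal transcripts carry no counts, so low genes such as Psme1, Psmd8 and Psmg1 have unknown counting error.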
